A study of Mus musculus with 6 samples.

Results

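Blood vessels and the adhesion molecules that capture leukocytes on them were examined through 10 genes in imiquimod-treated mouse ear skin. The genes were taken by symbol from a table of 23518 genes, and all 10 were present. They form 2 groups: 7 genes of endothelial identity, namely Pecam1, Cdh5, Tie1, Tek, Kdr, Flt1 and Vwf, and 3 adhesion molecules that inflammatory signals can induce, namely Sele, Icam1 and Vcam1. The samples were 3 of HdR and 3 of wild-type (WT) mouse ear skin. Per the series' design text, HdR mice carry HOIL1 that lacks its RING1 domain. HOIL1, the product of Rbck1, is a subunit of the complex that builds linear ubiquitin chains and thereby shapes NF-kB signalling. Ears received 10 mg of a cream holding 5% imiquimod, a Toll-like receptor agonist, and the samples are labelled day 1. All samples of both genotypes were treated, so nothing here concerns untreated skin. The sources used here give no age, sex or strain, nor what the deletion leaves of the transcript.

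Endothelial cells line every vessel and are recognised by adhesion and junction proteins (PECAM1, VE-cadherin), by the receptors for angiopoietins (TEK and its partner TIE1) and for VEGF (KDR and FLT1), and by von Willebrand factor. When TNF or IL-1 reaches them, NF-kB switches on E-selectin, ICAM1 and VCAM1, on which leukocytes roll, arrest and leave the blood. These proteins are not equally restricted: PECAM1 is also carried by platelets and leukocytes, ICAM1 by activated keratinocytes and leukocytes, and VCAM1 by some fibroblasts and macrophages, whereas Cdh5 and Sele are largely endothelial.

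The 250 bases before the annotated start are shown for 4 of these genes, because their promoters are the stretches in which NF-kB and TATA elements of the adhesion genes can be set against those of the receptor genes. RefSeq sequences on GRCm38.p6 were at hand for 6 of the 10 genes, and the start meant here is the RefSeq one. It can differ from the GENCODE gene coordinates given further below. The GENCODE Tie1 gene begins at 118490061 on the minus strand, inside the Tie1 window, so most of that window lies within this gene. The GENCODE Icam1 gene begins at 21015985, past the end of the Icam1 window. Each is written 5′ to 3′ on the strand of its gene. Capitals mark matches, on either strand, to GGANNTTCC, a motif of the NF-kB type. They also mark the ETS-type motif CAGGAAG. The other capitals, with the letters TATAAA, mark a TATA box. Sele lies at chr1:164047984-164048233 (plus strand), Icam1 at chr9:21015690-21015939 (plus strand), Tie1 at chr4:118489850-118490099 (minus strand) and Flt1 at chr5:147726012-147726261 (minus strand).
Sele: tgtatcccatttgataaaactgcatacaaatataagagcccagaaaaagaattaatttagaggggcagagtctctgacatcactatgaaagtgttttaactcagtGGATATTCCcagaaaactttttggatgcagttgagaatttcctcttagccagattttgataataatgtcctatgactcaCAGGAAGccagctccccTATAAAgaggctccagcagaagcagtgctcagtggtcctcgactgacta
Icam1: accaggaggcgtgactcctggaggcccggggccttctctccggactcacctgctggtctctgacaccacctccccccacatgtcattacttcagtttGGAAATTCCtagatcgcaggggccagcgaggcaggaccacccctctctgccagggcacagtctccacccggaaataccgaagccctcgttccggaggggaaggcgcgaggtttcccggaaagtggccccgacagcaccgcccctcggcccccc
Tie1: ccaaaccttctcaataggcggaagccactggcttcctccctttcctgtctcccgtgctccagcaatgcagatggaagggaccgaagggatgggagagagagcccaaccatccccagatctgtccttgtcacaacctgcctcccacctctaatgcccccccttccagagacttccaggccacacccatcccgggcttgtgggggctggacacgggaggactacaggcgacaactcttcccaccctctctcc
Flt1: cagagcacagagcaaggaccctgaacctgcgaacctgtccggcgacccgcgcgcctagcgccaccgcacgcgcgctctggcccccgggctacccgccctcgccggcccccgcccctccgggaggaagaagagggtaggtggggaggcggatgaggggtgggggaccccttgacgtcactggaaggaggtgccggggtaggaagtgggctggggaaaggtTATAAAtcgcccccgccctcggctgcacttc
The Sele window held GGATATTCC, 145 to 137 bases before the start, and the Icam1 window held GGAAATTCC, 153 to 145 bases before it. GGANNTTCC was found in 3.59% of the 32851 promoter windows of this length, the TATA box in 12.4% and the ETS-type motif in 10.8%. The ETS-type match of Sele stood 66 to 60 bases before the start. GGGNNTTCC, in 4.98% of windows, and the longer kB form with 1 more T, in 1.41%, had no match in these 6 genes. A TATA box stood 49 to 44 bases before the start of Sele and 31 to 26 bases before that of Flt1. GGANNTTCC was added after the sequences were seen, and the windows for Tek and Kdr, like that of Tie1, held none of the 5 motifs.

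The deposited values are sums of aligned bases per gene. Libraries totalled 4433 to 5264 Mb in HdR and 5038 to 5966 Mb in WT, which at 300 bases a pair amounts to 14.8 to 19.9 M read pairs. Levels are given as normalised coverage in bases per Mb, and changes as the difference of HdR and WT means of log2(value + 1), a scale that makes the changes of weakly covered genes look smaller. A test across 15049 genes (limma, Benjamini-Hochberg adjusted p under 0.05) called 30.6% of them, 12.7% higher and 17.9% lower in HdR, and all 10 genes passed its filter on low values. The genotypes did not overlap in 51.5% of the tested genes: every HdR value lay below every WT value in 30.7% and above in 20.9%. Rbck1 read 13.0 to 23.9 in HdR and 55.1 to 66.6 in WT. Long transcripts were lower and short ones higher in HdR: over 10 equal bins of length, the median change was 0.64 in the shortest and -0.58 in the longest, so length-corrected changes are given for the 10 genes, and for other genes where the correction ended or made a call. The ribosomal RNA gene Rn45s read 3958 to 19414 in HdR and 863 to 1167 in WT, highest in HdR replicate 2; its part in any result was not tested. The keratinocyte gene Krt5 had 1208 to 1752 in HdR and 1882 to 2235 in WT, so the tissue was skin by this marker.

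The junction gene Cdh5, the angiopoietin receptor gene Tek and its partner Tie1 were less covered in HdR than in WT ear skin. Of the 7 identity genes, Tie1, Tek and Cdh5 fell and none rose, against 17.9% of all tested genes lower and 12.7% higher. After correction for transcript length only Tie1 was still called lower, against 8.47% of tested genes, and Flt1 was called higher, against 10.9%. No identity gene was called lower when the length of the longest coding transcript was used. Pecam1 and Kdr also lay lower in every HdR sample, as did 30.7% of all tested genes, but missed the threshold. Flt1 and Vwf overlapped between the genotypes. None of Sele, Icam1 and Vcam1 passed in either direction. In bulk skin, fewer endothelial cells and less RNA per endothelial cell cannot be told apart.

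Pecam1 (ENSMUSG00000020717.19; chromosome 11, 106654217 to 106750628, minus strand) encodes the platelet and endothelial cell adhesion molecule, which sits at the contacts between endothelial cells and takes part in leukocyte passage. Its coverage was 36.0, 14.5 and 32.4 in HdR replicates 1, 2 and 3, and 52.5, 40.8 and 48.0 in WT replicates 1, 2 and 3. All HdR samples lay below all WT samples, and HdR replicate 2 was far below the other HdR samples. The log2 change was -0.84 (SE 0.31) and missed the threshold (limma adjusted p = 0.0646). Without HdR replicate 2 the change was -0.44. With the replicate number as a block it passed (adjusted p = 0.0116). After correction for transcript length it was -0.63 (adjusted p = 0.111; 0.0347 with the block).

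Cdh5 (ENSMUSG00000031871.9; chromosome 8, 104101625 to 104144511, plus strand) encodes VE-cadherin, the adhesive protein of endothelial adherens junctions. It read 8.19, 6.32 and 9.26 in HdR, and 13.9, 11.7 and 12.9 in WT. The genotypes did not overlap. Cdh5 fell, with a mean of 7.92 ± 1.48 in HdR and 12.8 ± 1.07 in WT (SD, n = 3 each) and a log2 change of -0.64 (SE 0.19, limma adjusted p = 0.0349). After length correction the change was -0.36 and did not pass (adjusted p = 0.126).

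Tie1 (ENSMUSG00000033191.14; chromosome 4, 118471191 to 118490061, minus strand) encodes an orphan receptor tyrosine kinase that modulates angiopoietin signalling through TEK. Coverage was 4.17, 2.47 and 4.35 in HdR, and 9.23, 6.0 and 10.2 in WT. Tie1 had the largest change of the 10 genes, and its HdR mean of 3.66 ± 1.04 stood at 0.432 of the WT mean of 8.49 ± 2.21. It fell by 1.02 on the log2 scale (SE 0.25, limma adjusted p = 0.0217). It was also the only identity gene still called lower with the length trend removed (-0.71, adjusted p = 0.0468), a call that was lost when the length of the longest coding transcript was used instead (adjusted p = 0.0527).

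Tek (ENSMUSG00000006386.15; chromosome 4, 94739289 to 94874976, plus strand) encodes the receptor for angiopoietins, which stabilises quiescent vessels when bound by ANGPT1. It read 8.74, 5.53 and 10.2 in HdR, and 15.2, 13.5 and 14.6 in WT. The WT samples lay close together and above all HdR samples. Tek fell by 0.79 (SE 0.22, limma adjusted p = 0.0316), to 8.17 ± 2.41 in HdR against 14.4 ± 0.835 in WT. After length correction it was -0.43 (adjusted p = 0.116).

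Leaving out single libraries ended the calls of Cdh5, Tie1 and Tek as it ended many others. Without HdR replicate 2, without WT replicate 1 or without WT replicate 3 none of the 3 passed, whereas Tie1 alone did when HdR replicate 1 was left out. Their changes then ran from -1.11 to -0.51. Of all tested genes 30.6% were called, against 12.8% without HdR replicate 2, 2.88% without WT replicate 1, 9.13% without WT replicate 3 and 18.9% without HdR replicate 1.

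Neither VEGF receptor gene passed the test. Kdr (ENSMUSG00000062960.10; chromosome 5, 75932827 to 75978458, minus strand), which encodes the main signalling receptor for VEGF-A, read 11.8, 11.4 and 12.6 in HdR, and 19.5, 15.8 and 14.7 in WT. The HdR samples were nearly equal and all lay below the WT samples. The log2 change was -0.44 (SE 0.17, limma adjusted p = 0.0759), and it passed with the replicate block (adjusted p = 0.0489). It was 0.00 after length correction (adjusted p = 0.989).

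Flt1 (ENSMUSG00000029648.13; chromosome 5, 147561604 to 147726011, minus strand) encodes a VEGF receptor that also acts as a decoy, partly in a soluble form. It read 8.44, 8.92 and 9.08 in HdR, and 9.40, 6.77 and 8.09 in WT. The genotypes overlapped, with a log2 change of 0.12 (SE 0.18, limma adjusted p = 0.625). Flt1 was called higher after length correction (0.62, adjusted p = 0.0364). A sum over the gene cannot separate the soluble from the membrane form. The difference between the changes of Kdr and Flt1 was not tested.

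Vwf (ENSMUSG00000001930.17; chromosome 6, 125546774 to 125686679, plus strand) encodes the clotting glycoprotein that endothelial cells store beside P-selectin. It read 3.90, 5.09 and 6.33 in HdR, and 4.28, 3.06 and 6.84 in WT. The ranges overlapped widely (log2 change 0.13, SE 0.27, limma adjusted p = 0.739). After length correction Vwf changed by 0.68, which missed the threshold (adjusted p = 0.0674) and passed together with the replicate block (adjusted p = 0.0387). Platelets also carry this protein, and their 9 listed genes were mixed. Gp9, Gp6, Treml1 and Clec1b were at most 0.580 in HdR and at most 0.433 in WT. Gp1bb read 19.2 to 25.4 in HdR and 18.9 to 29.3 in WT, and Itga2b read 7.44 to 10.6 in HdR and 8.93 to 11.3 in WT. Gp1ba read 2.56 to 5.14 in HdR and 2.87 to 3.61 in WT, and Ppbp 0.711 to 1.43 in HdR and 0.0847 to 0.625 in WT. Pf4, which macrophages also express, read 213 to 282 in HdR and 37.7 to 66.0 in WT and was called higher (limma adjusted p = 0.0016). The part of platelets in the values of Vwf and Pecam1 was not tested.

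**Figure D1:**
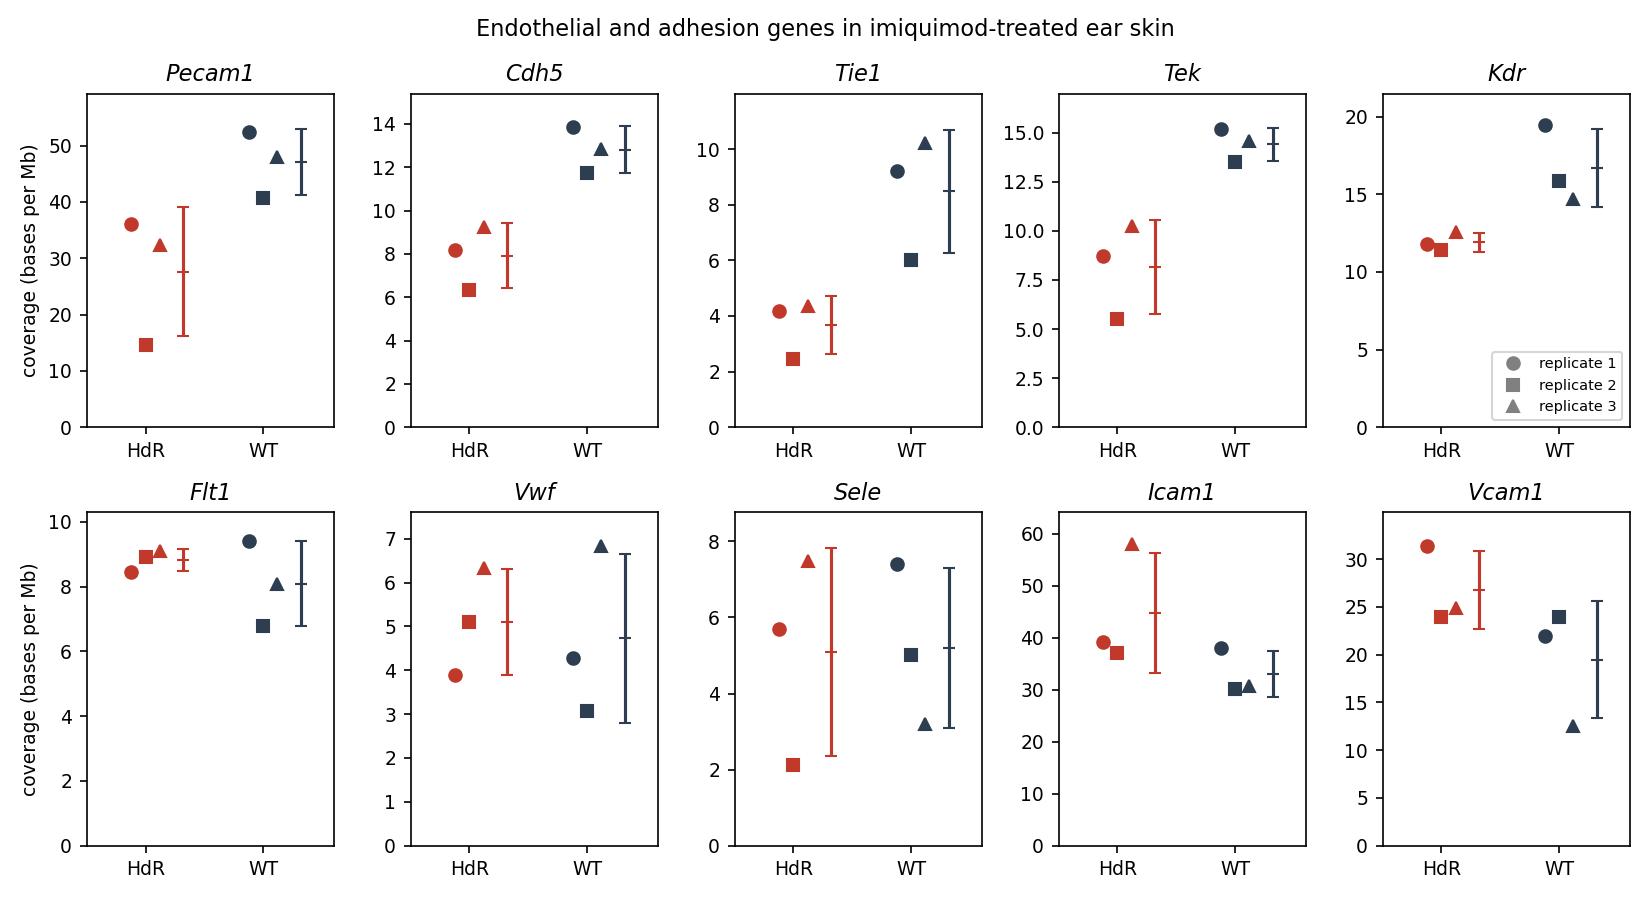
Normalised coverage (bases per Mb, vertical axes from 0) of the 10 genes in each sample, HdR in red and WT in dark blue; the symbols mark replicates 1 to 3 and the bar at the side gives mean and SD. The HdR points lie below all WT points for Pecam1, Cdh5, Tie1, Tek and Kdr, and the genotypes overlap for the other 5. Of all tested genes, 30.7% had every HdR value below every WT value.

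Among the adhesion molecules, Sele (ENSMUSG00000026582.6; chromosome 1, 164048234 to 164057677, plus strand) encodes E-selectin, which catches rolling leukocytes and is made almost only by activated endothelium. It read 5.69, 2.12 and 7.5 in HdR, and 7.40, 5.00 and 3.19 in WT. Both genotypes spread more than 2-fold among their own samples, and HdR replicate 2 had the lowest value and HdR replicate 3 the highest. The log2 change was -0.08 (SE 0.39, limma adjusted p = 0.876), with a 95% interval from 0.515-fold to 1.73-fold. Sele in HdR replicate 2 rested on the equivalent of 24.8 read pairs, the lowest of any value of the 10 genes. Without that library the change was 0.34.

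Icam1 (ENSMUSG00000037405.8; chromosome 9, 21015985 to 21028817, plus strand) encodes the ligand of the leukocyte integrins that ITGB2 forms with ITGAL and ITGAM. It read 39.1, 37.0 and 58.0 in HdR, and 38.0, 30.2 and 30.8 in WT. HdR replicate 3 stood above the rest, and HdR replicates 1 and 2 lay near WT replicate 1. The log2 change was 0.41 (SE 0.20) and did not pass (limma adjusted p = 0.150), with a 95% interval from 0.961-fold to 1.83-fold.

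Vcam1 (ENSMUSG00000027962.14; chromosome 3, 116109949 to 116129688, minus strand) encodes the ligand of the integrin of ITGA4 and ITGB1 on monocytes and lymphocytes. It read 31.4, 24.0 and 24.8 in HdR, and 22, 24.0 and 12.5 in WT. HdR replicate 2 and WT replicate 2 had nearly the same value, and WT replicate 3 was the lowest. The log2 change was 0.48 (SE 0.25, limma adjusted p = 0.161), with a 95% interval from 0.943-fold to 2.05-fold. Vcam1 passed only where the length trend was removed together with the replicate block (0.77, adjusted p = 0.0193), where 16.5% of tested genes were higher and 14.6% lower. These intervals still hold changes of over 1.5-fold, so a p that misses the threshold does not show that the adhesion genes were equal.

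The scaling between libraries moved the changes. Over all tested genes the median change was -0.13, and it came to -0.41 when libraries were scaled to their total bases, where 17.6% of calls were higher, against 41.3%, and -0.01 with quantile normalisation (53.1% of calls higher). Relative to these medians the order of the 10 genes was the same with TMM and with total scaling at the lower end: Tie1, Pecam1, Tek, Cdh5 and Kdr stood lowest. With total scaling, which called 34.7% of genes (28.6% lower and 6.1% higher), all 5 passed as lower, with changes from -1.28 to -0.74, while Icam1 and Vcam1 came to 0.09 and 0.17, and Flt1 and Vwf changed sign (-0.17 and -0.14). With the replicate block, the same 5 genes passed, where the block called 45.5% of all tested genes, 27.2% lower and 18.3% higher.

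**Figure D2:**
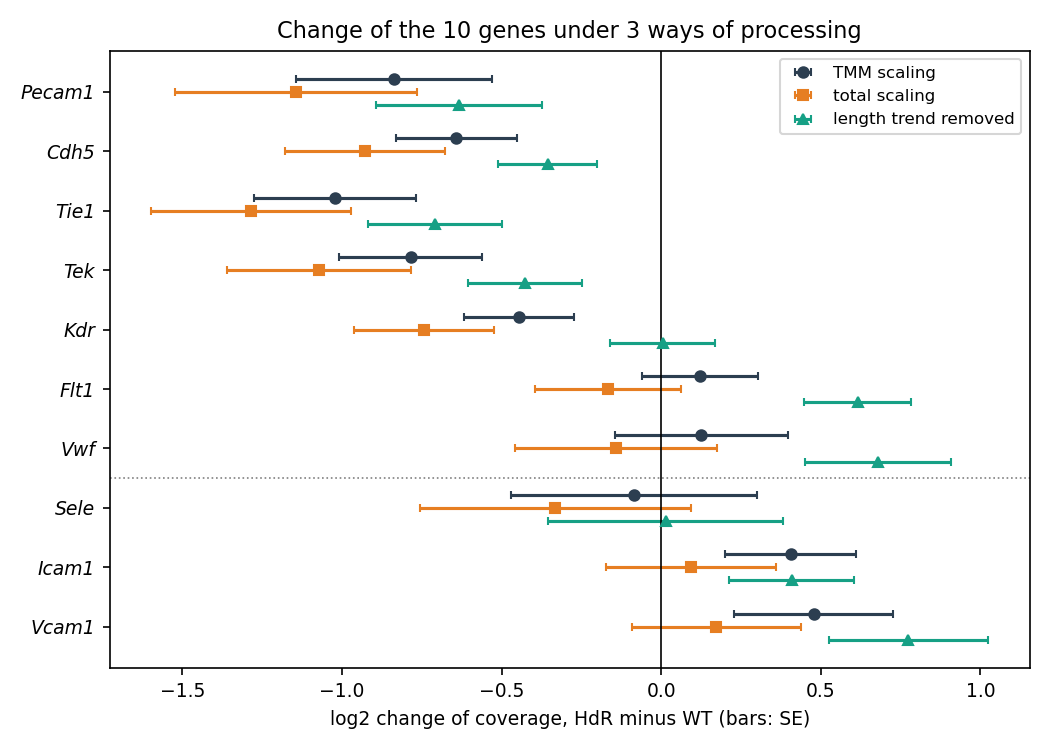
Log2 change (HdR minus WT, horizontal axis, bars SE) of the 10 genes with the trimmed-mean (TMM) scaling used throughout, with scaling to total bases and with the length trend removed; the dotted line parts the identity genes above from the adhesion genes below. Tie1 stays lowest under TMM (-1.02), total scaling (-1.28) and length removal (-0.71), while Flt1 and Vwf move from near 0 to 0.62 and 0.68 when the length trend is removed.

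Transcript length bears on the identity genes, since their longest transcripts run from 3441 nt for Pecam1 to 8834 nt for Vwf, while those of the adhesion genes are 2535 nt for Icam1, 2912 nt for Sele and 4088 nt for Vcam1. The 500 tested genes nearest in length to each gene gave a median change to set beside it. This median was -0.31 for Tie1, -0.36 for Tek, -0.30 for Cdh5 and -0.20 for Pecam1, nearer to 0 in each case than the change of the gene. For Kdr it was -0.48, close to the change of Kdr itself. For Flt1 and Vwf it was -0.53 and -0.56, far below their own changes. It was -0.09 for Sele, -0.01 for Icam1 and -0.28 for Vcam1. After length correction 19.4% of tested genes were called, 8.47% lower and 10.9% higher, and of the identity genes Tie1 was lower and Flt1 higher.

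**Figure D3:**
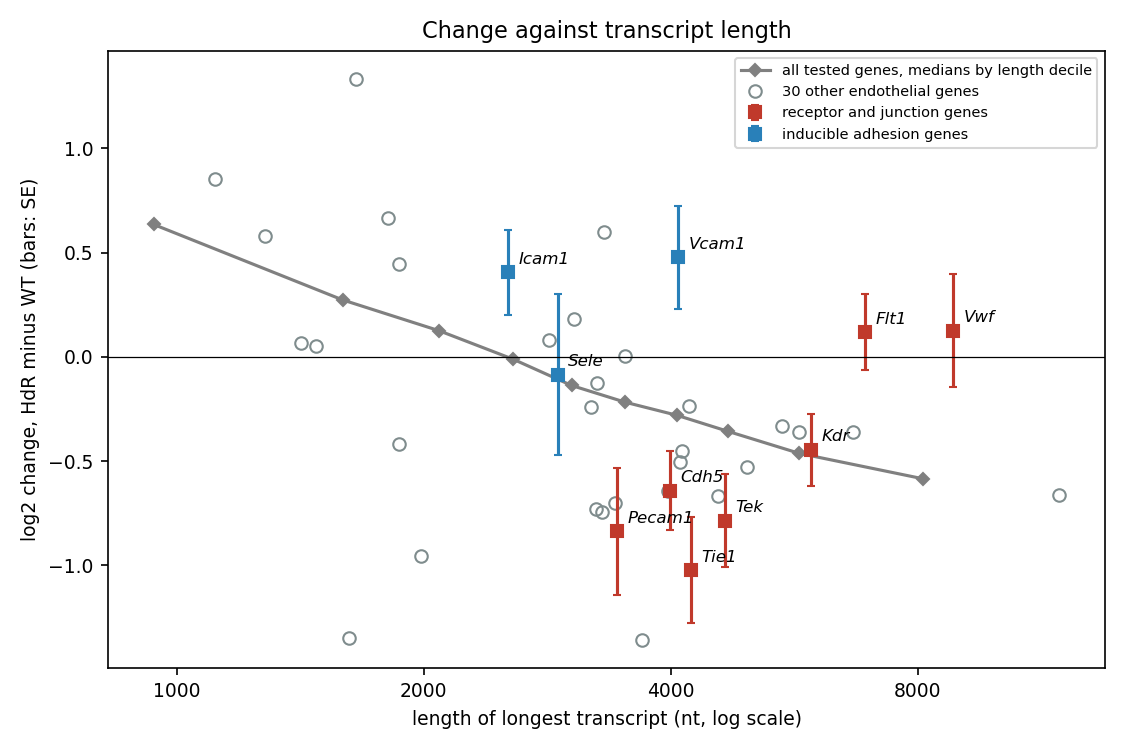
Log2 change (HdR minus WT, vertical axis, bars SE for the 10 genes) against the length of the longest transcript (nt, log axis); the grey line joins the median changes of all tested genes in 10 equal bins of length, open circles are 30 other endothelial genes. Pecam1, Cdh5, Tie1 and Tek lie below the line, Kdr on it, and Icam1, Vcam1, Flt1 and Vwf above it.

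The adhesion genes were also set against Cdh5 within each library, a ratio that scaling between libraries cannot alter. Icam1 per Cdh5 was 4.78, 5.85 and 6.26 in HdR, and 2.74, 2.58 and 2.39 in WT. Vcam1 per Cdh5 was 3.84, 3.79 and 2.68 in HdR, and 1.59, 2.05 and 0.972 in WT. Both ratios were higher in every HdR sample, but so was the ratio to Cdh5 of 53.7% of all tested genes, because Cdh5 itself fell. Sele per Cdh5 overlapped, at 0.695, 0.335 and 0.810 in HdR, and 0.533, 0.427 and 0.248 in WT. Per Pecam1, every HdR value lay above every WT value for all 3 adhesion genes, against 47.9% of tested genes. The log2 difference between HdR and WT was 1.12 for Icam1 per Cdh5 and 1.21 for Vcam1 per Cdh5. With the length trend removed, the changes of Icam1 and Vcam1 exceeded that of Cdh5 by 0.76 and 1.13. These ratios are given as a description, with no test.

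**Figure D4:**
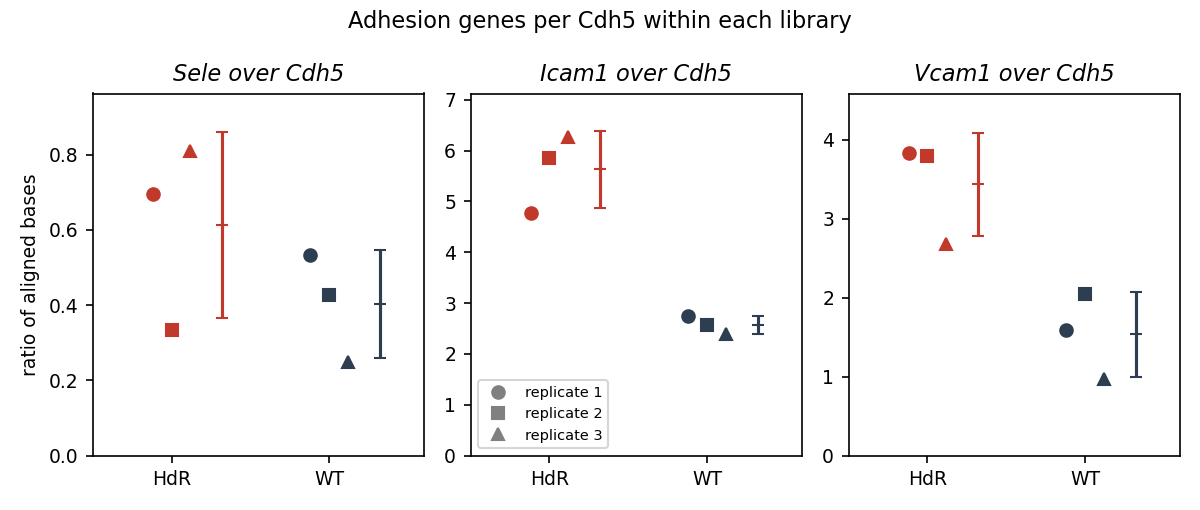
Aligned bases of Sele, Icam1 and Vcam1 divided by those of Cdh5 in the same library (vertical axes from 0), HdR in red and WT in dark blue, symbols for replicates 1 to 3, bars mean and SD. The Icam1 ratio lies between 4.78 and 6.26 in HdR and between 2.39 and 2.74 in WT, and the Sele ratio overlaps.

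Per kb of the longest coding transcript, Icam1 (17.6 ± 4.55 bases per Mb per kb), Pecam1 (8.03 ± 3.34) and Vcam1 (7.71 ± 1.17) had the highest levels in HdR skin, of which Pecam1 and Vcam1 did not differ beyond their spread. In WT skin Pecam1 (13.7 ± 1.71) and Icam1 (13.0 ± 1.72) were level within their spread and Vcam1 (5.62 ± 1.77) came next. Kdr (2.01 ± 0.102), Cdh5 (1.98 ± 0.371), Tek (1.76 ± 0.518) and Sele (1.75 ± 0.940) lay together in HdR. Cdh5 (3.21 ± 0.269), Tek (3.10 ± 0.180) and Kdr (2.81 ± 0.422) did so in WT. Vwf was lowest in both, at 0.578 ± 0.137 in HdR and 0.535 ± 0.218 in WT.

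Other endothelial genes were mixed. Of 30, 8 fell and 2 rose, where 17.9% of all tested genes fell and 12.7% rose. Their median log2 change was -0.35 against -0.13 over all tested genes. The 8 were Sox17, Sox18, Sox13, Mmrn2, Clec14a, Plvap, Ptprb and Eng, of which Sox17, Mmrn2, Clec14a, Ptprb and Eng were named after their values were seen. Sox18, a transcription factor of vessel development, fell to 1.27 ± 0.507 in HdR against 4.93 ± 2.01 in WT (limma adjusted p = 0.0160). Plvap, which forms the diaphragms of fenestrated capillaries, fell to 10.7 ± 2.52 in HdR against 21.5 ± 4.05 in WT (adjusted p = 0.0185). Sox13 fell by 1.36. The genes that rose were Gpihbp1, which anchors lipoprotein lipase on capillaries, at 13.6 ± 5.83 in HdR and 4.65 ± 1.54 in WT (1.33, adjusted p = 0.0167), and Fli1 (0.60), an ETS factor that leukocytes express too. With the replicate block 10 fell and 6 rose, against 27.2% and 18.3% of all tested genes. After length correction 3 fell and 2 rose, with a median of -0.07, against 8.47% and 10.9% of all tested genes. Leaving out WT replicate 1 left none of the 30 called, and leaving out WT replicate 3 or HdR replicate 2 left 1 in each direction.

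Genes that mark vessel segments were mixed as well. Of 12, the arterial Sema3g (-0.93), Efnb2 (-0.76) and Dll4 (-0.73) fell, and Rgcc (1.20) and Car4 (1.47), both known from capillaries, rose, with a median of -0.12. Of all tested genes 17.9% fell and 12.7% rose, with a median of -0.13. The likewise arterial Gja4 (-0.09), Gja5 (-0.07), Hey1 (-0.09) and Bmx (-0.14) did not pass, nor did Ackr1 (-0.26), Ephb4 (-0.30) and Nr2f2 (0.46). Car4 read 10.5, 7.27 and 1.92 in HdR, and 0.827, 1.97 and 1.41 in WT, so that HdR replicate 3 lay within the WT range. After length correction Rgcc still passed (0.67, limma adjusted p = 0.0173) and Nr2f2 was called higher (0.77, adjusted p = 0.0338), against 10.9% of all tested genes. Car4 (1.06, adjusted p = 0.103), Sema3g, Efnb2 and Dll4 did not pass. In the lymphatic list Lyve1, a hyaluronan receptor that macrophages share, rose to 164 ± 19.5 in HdR against 81.8 ± 5.96 in WT, and Tbx1 fell by 1.44. The other 7 of its 9 genes did not pass. With the replicate block Flt4 (-0.76, adjusted p = 0.00779) and Reln (0.57, adjusted p = 0.0228) passed too, and after length correction Ccl21a (-0.98, adjusted p = 0.0304) and Reln (1.16, adjusted p = 0.0145).

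None of the ligand genes of KDR, FLT1 and TEK in the list (Vegfa, Vegfb, Vegfc, Pgf, Angpt1, Angpt2 and Angpt4) passed the test in either direction. Of 12 VEGF and angiopoietin genes tested, Vegfd (-0.88), Apln (-0.69) and its receptor gene Aplnr (-0.61) fell and Nrp1, a VEGF co-receptor gene, rose (0.51), with a median of -0.48. Of all tested genes 17.9% fell and 12.7% rose, with a median of -0.13. After length correction Vegfd and Nrp1 still passed, and Apln (-0.54, adjusted p = 0.0875) and Aplnr (-0.36, adjusted p = 0.235) did not. With the replicate block 6 fell and 1 rose, against 27.2% and 18.3% of all tested genes. Vegfa, the ligand of KDR and FLT1, read 31.1, 19.3 and 30.3 in HdR, and 45.8, 28.3 and 42.1 in WT. The genotypes overlapped (-0.51, limma adjusted p = 0.131), and Vegfa passed with the replicate block (adjusted p = 0.0133). Angpt1, the TEK agonist, stood at 14.6 ± 1.25 in HdR and 21.2 ± 5.84 in WT (-0.48, adjusted p = 0.104; 0.0356 with the block). Angpt2, its context-dependent antagonist, stood at 8.04 ± 1.09 in HdR and 11.6 ± 1.03 in WT (-0.48, adjusted p = 0.0696).

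None of the other adhesion genes of vessels that passed the filter was called higher. Of 10 tested, Podxl (-0.96), Alcam (-0.67) and Cd99l2 (-0.65) fell and the rest did not pass. Of all tested genes 17.9% fell and 12.7% rose. After length correction Podxl still passed (-0.54, adjusted p = 0.0422), and Alcam (-0.21, adjusted p = 0.259) and Cd99l2 (-0.42, adjusted p = 0.0975) did not. Selp, the gene of P-selectin, read 1.99 to 3.95 in HdR and 2.17 to 2.80 in WT. Madcam1 and Glycam1, addressins of gut and lymph node vessels, were below the filter. Madcam1 read 0.340 to 0.605 in HdR and 0 to 0.155 in WT. Without a filter 1 gene of the list was called higher, against 4.37% of all genes. Among the leukocyte partners, 2 of 14 fell and none rose, against the same 17.9% and 12.7% of all tested genes. The 2 were Glg1 (-0.88), an E-selectin ligand, and Itgb1 (-0.62), an integrin gene of many cell types. Length correction ended both calls (Glg1 -0.38, adjusted p = 0.216; Itgb1 -0.36, adjusted p = 0.0879), and Cd44 was then called higher (0.66, adjusted p = 0.0265). Selplg, the selectin ligand of leukocytes, stood at 16.1 ± 5.13 in HdR and 24.1 ± 3.24 in WT (-0.60, adjusted p = 0.0855; 0.0357 with the block). The integrin genes Itgal (-0.18), Itgam (0.10), Itgb2 (-0.16) and Itga4 (-0.45) did not pass.

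Signals that can induce the adhesion genes were partly higher. Of 14 genes of the TNF and IL-1 inputs and NF-kB, Il1b (1.85), Nfkbia (1.46) and Tnf (1.05) rose and Il1rap (-0.57) and Rel (-0.85) fell. Of all tested genes 12.7% rose and 17.9% fell. After length correction neither fall passed (Il1rap -0.22, adjusted p = 0.249; Rel -0.34, adjusted p = 0.248), the 3 rises did, and Tnfaip3, an NF-kB inhibitor gene, was called higher (1.06, adjusted p = 0.0310). Il1b stood at 72.8 ± 21.0 in HdR and 21.7 ± 14.1 in WT, and Tnf at 25.4 ± 4.39 in HdR and 11.8 ± 2.79 in WT. The receptor genes Tnfrsf1a, Tnfrsf1b and Il1r1 did not pass. These cytokine and inhibitor genes are known to respond in many cell types, so their values do not show which cells carried them. With total scaling 6 genes of the lists lost their calls, namely Tnf, Car4, Fli1, Nrp1, Cd68 and Csf1r.

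Markers of other cells stood beside these values as follows, where 12.7% of all tested genes rose and 17.9% fell. Of 12 leukocyte genes S100a8, S100a9, Cd68 and Csf1r rose and none fell, and the summed coverage of the list was 1171 to 3970 in HdR and 483 to 783 in WT. Without S100a8 and S100a9, left out after their values were seen, the sums overlapped (531 to 840 in HdR, 362 to 611 in WT). Of these 4 genes only S100a8 and S100a9 still passed with total scaling, and Cd68 did not pass after length correction (0.42, adjusted p = 0.110). Of 12 mural cell genes Acta2 fell (-0.67), and the sums overlapped (327 to 402 in HdR, 396 to 462 in WT). Of 9 fibroblast genes Col1a1 and Col1a2 fell and Dpt rose, and of 9 keratinocyte genes Krt1, Krt14 and Dsg3 fell. Length correction ended the calls of Col1a2 (adjusted p = 0.243), Krt1 (adjusted p = 0.0817) and Dsg3 (adjusted p = 0.168). Of 4 platelet genes tested Pf4, which macrophages also express, rose (2.28). The part of these cells in the values of Pecam1, Icam1 and Vcam1 was not tested. Over the 146 tested genes of these 12 lists, 15 rose (10.3%) and 28 fell (19.2%), against 12.7% and 17.9% of all tested genes. Below, brackets give the shares of all tested genes that rose and fell in the same setting. After length correction 20 rose and 10 fell (10.9% and 8.47%). With total scaling the counts were 9 and 43 (6.1% and 28.6%), and with the replicate block 24 and 41 (18.3% and 27.2%). They were 8 and 1 without WT replicate 1 (1.33% and 1.55%), and 9 and 3 without WT replicate 3 (4.1% and 5.04%). Leaving out HdR replicate 2 gave 9 and 7 (5.18% and 7.64%), and HdR replicate 1 gave 10 and 14 (6.96% and 11.9%). Leaving out HdR replicate 3 gave 15 and 14 (10.3% and 13.5%), and WT replicate 2 gave 21 and 33 (17.9% and 22.6%).

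**Figure D5:**
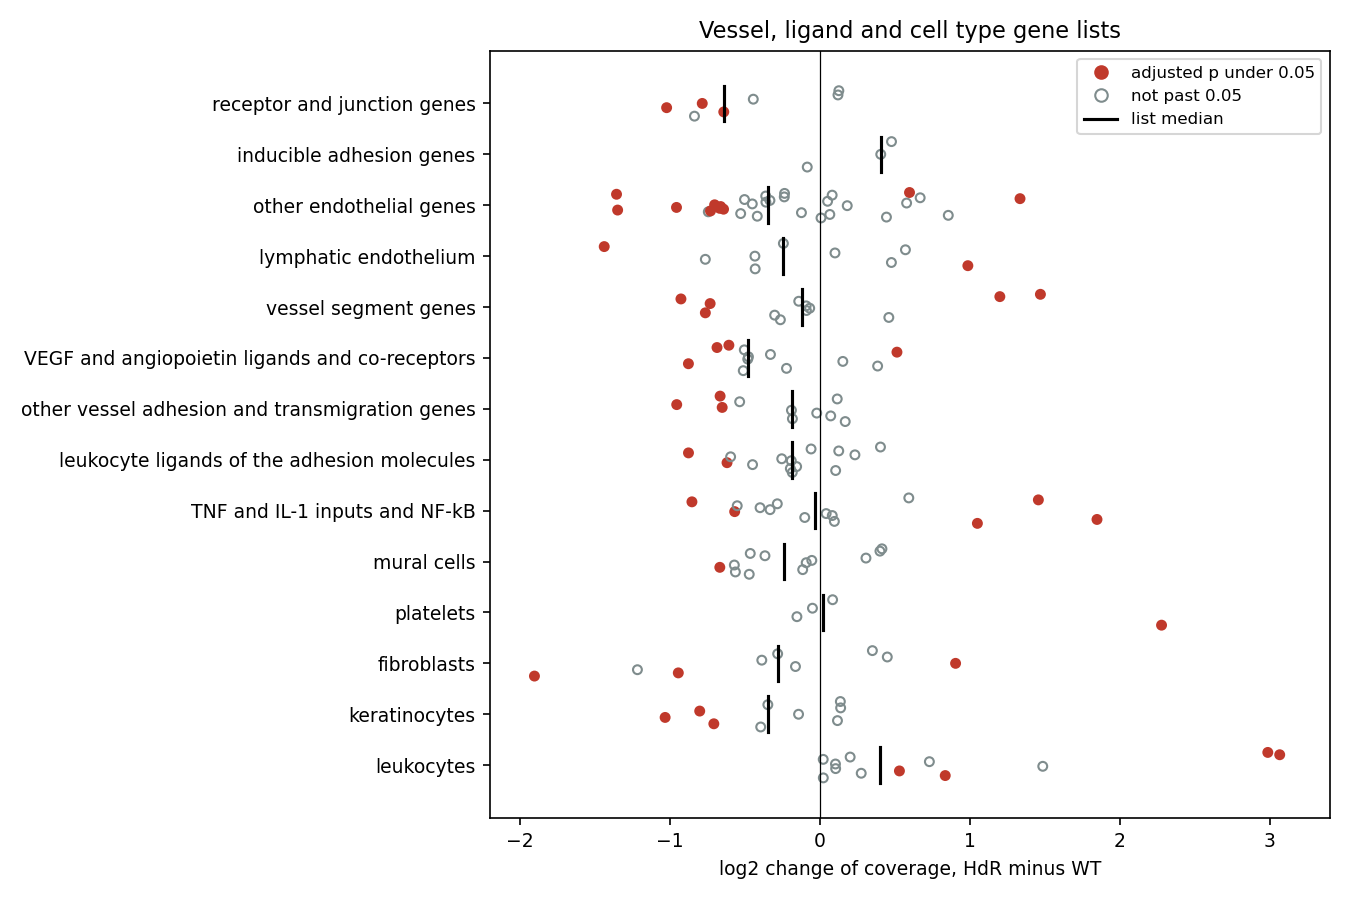
Log2 change (HdR minus WT, horizontal axis) of every tested gene of 14 lists, filled red where the limma adjusted p was under 0.05, with the list median as a black bar. The identity genes have a median of -0.64 and the adhesion genes one of 0.41, while the other vessel lists hold called genes on both sides or the lower side only.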

How the data were processed

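RNA of 3 HdR and 3 WT ear skin samples was sequenced. Per the labels, total RNA went through a NEBNext Ultra II kit and a NovaSeq run, and GRCm38 is the build in the submitters' processing notes. The sources used here name no aligner, counter, annotation or strand setting. The deposited values are whole-number coverage, which this work reads as the bases aligned to a gene: 10.3% of values up to 3000 are whole multiples of 300, against 0.333% by chance, so they are not read counts.

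Columns were brought to bases per Mb with TMM factors, which trimmed 30% by log ratio and 5% by intensity. A gene entered the test when 3 or more libraries reached 1 base per Mb. limma 3.58.1 in R 4.3.3 (trend and robust options) compared log2(value + 1) of HdR with WT, two-sided, Benjamini-Hochberg adjusted over all genes tested. The labels do not say that the samples came from separate mice, so p-values measure only the spread between these samples, which may be technical. After removal of genotype means, libraries of the same replicate number correlated (r = 0.16, 0.42 and 0.37 for numbers 1, 2 and 3). Libraries of unlike number had r from -0.38 to 0.16, the highest between HdR replicate 3 and WT replicate 1. The number was taken to pair libraries from these same data, and the labels do not say why. Calls that passed only with the block rest on this choice. Length correction subtracted, in each library, a spline with 4 degrees of freedom over the log2 length of the longest GENCODE M21 transcript, known for 99% of tested genes. The fit was tested on simulated data.

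The genes, lists and tests were chosen with earlier results of these data known. Named beside the 10 genes are up to 4 called genes per list with the smallest p, called genes of a direction that 5 or fewer took, and direct ligands; Figf and Flg, listed too, are not in the table under those symbols. Read-pair equivalents carry counting error only.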

Additional observations from a re-analysis of the deposited data

How the results depend on the processing

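Tie1, Tek, Cdh5 and Pecam1 kept their lower direction under every alternative run. Calls over the whole table were 4605, and 8055 with voom and quality weights, 2144 without a filter, 2884 with the length trend removed, 2752 with coding length, 810 with the length trend removed and without HdR replicate 2, and 427 to 6016 with 1 library left out. Identity genes called lower were 3, and 5 with total scaling, voom or the replicate block. Of all tested genes 17.9% were lower, and 28.6%, 30.9% and 27.2% in these 3 settings. The count was 1 with quantile normalisation (13.8% of all tested genes lower) or the length trend removed (8.47%). It was 2 with the length trend removed and the replicate block (14.6%). It was 0 without a filter (4.84%), with coding length (8.03%), or with the length trend removed and without HdR replicate 2 (2.79%). With 1 library left out it was 0 to 3, against 1.55% to 22.6% of all tested genes. No identity gene was called higher, but 1 was with the length trend or coding length trend removed (10.9% and 10.4% of all tested genes higher). With the length trend removed and the replicate block 2 were (16.5%). Adhesion genes called higher were 0, and 1 (Vcam1) with the length trend removed and the replicate block. Coding length and the pairing of length removal with a left-out library were chosen after seeing the data. Of the other endothelial genes 8 were called lower, and 10 with total scaling or the block and 11 with voom. The count was 4 with quantile normalisation or with the length trend removed and the block, and 3 without a filter or with either length. It was 5 with a filter at 5 bases per Mb, and 1 with the length trend removed and without HdR replicate 2. With 1 library left out it was 0 to 10. Called higher were 2, and 1 with total scaling or no filter, 3 with quantile normalisation and 6 with voom or the block. This count was 0 with the length trend removed and without HdR replicate 2, and 0 to 5 with 1 library left out. Changes that turned sign were Kdr (0.0047 with the length trend removed, with or without the block, and 0.023 with coding length), Flt1 (-0.17 total, -0.042 voom), Vwf (-0.14 total, -0.015 without HdR replicate 3, and -0.079 to 0.39 over left-out libraries, the lowest without WT replicate 2) and Sele (0.053 quantile, 0.014 with the length trend removed, with or without the block, 0.080 coding length, 0.40 with the length trend removed and without HdR replicate 2, 0.16 without WT replicate 1, and -0.38 to 0.34 over left-out libraries, the highest without HdR replicate 2). Among ligand genes they were Itgal (0.22 with the length trend removed, with or without the block, 0.24 coding length, 0.10 also without HdR replicate 2), Itga4 (0.12, 0.13 and 0.32 in the same settings), Itgb2 (0.020 quantile, 0.022 coding length, and -0.31 to 0.022 over left-out libraries) and Itgam (-0.21 total, -0.024 voom, and -0.089 to 0.49 over left-out libraries). The cause of these shifts was not tested. The log2 ratio of Icam1 to Cdh5 ran from 1.04 to 1.24 and that of Vcam1 from 0.91 to 1.45 with 1 library left out. Of the values of the 10 genes under alternatives, 127 kept direction and side of the threshold, 12 gained and 26 lost a call, and 15 turned sign. The replicate block, which pairs libraries by number, moved Pecam1 (adjusted p = 0.0116) and Kdr (0.0489) past the threshold and changed no other call of the 10 genes. The lowest single value of the 10 genes, Sele in HdR replicate 2, rested on 24.8 read-pair equivalents.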
